A study of Mus musculus with 14 samples.

Results

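The chemokine receptors Ccr9, Cxcr6, Cxcr4 and Cxcr3, which guide T cells into tissues, were followed in activated naive CD8 T cells that carried or lacked the long noncoding RNA Morrbid. The members were taken by symbol from the deposited expression tables, where they were 4 of 12843 genes with interferon beta (IFN-beta) and 4 of 14732 genes without it. The cells were splenic CD8 T cells of C57BL/6 mice, sorted as naive by high CD62L and low CD44 and then activated for 6 h, by anti-CD3 fixed to the plate (1 µg/mL) together with anti-CD28 in solution (1 µg/mL). The 4 groups were Morrbid-/- with 20 ng/mL IFN-beta (4 libraries), wild type with 20 ng/mL IFN-beta (4 libraries), Morrbid-/- without IFN-beta (3 libraries) and wild type without IFN-beta (3 libraries). All 14 libraries came from activated cells, and unstimulated cells were not analysed here. The labels do not say how the Morrbid-/- allele was made, how old the mice were, or whether replicates came from separate animals, so p-values measure the spread between these libraries, which may be technical.

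Chemokine receptors are G protein-coupled receptors that steer moving cells along gradients of secreted chemokines. CCR9 binds CCL25, made by the small intestine and the thymus, and helps bring T cells to the gut. CXCR6 binds CXCL16 and is found on effector and tissue-resident CD8 T cells, for example in the liver. CXCR3 binds CXCL9, CXCL10 and CXCL11, the interferon-induced chemokines of inflamed tissue, and marks effector and memory CD8 T cells. CXCR4 binds CXCL12, which retains cells in the bone marrow, and is present on naive T cells. Type I interferons such as IFN-beta are antiviral cytokines that induce a broad set of genes, and Bcl2l11, a neighbour of the Morrbid gene, encodes BIM, a protein that promotes cell death.

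In the GENCODE annotation of GRCm38, Ccr9 spans chr9:123678439-123784330 and Cxcr6 spans chr9:123806475-123811760, both on the plus strand. From the end of Ccr9 to the start of Cxcr6 are 22145 bases, in a cluster of chemokine receptor genes on chromosome 9. Cxcr6 lies in intron 15 of Fyco1, a gene on the opposite strand, and shares 0 exon bases with it. Cxcr4 lies at chr1:128588199-128592293 and Cxcr3 at chrX:101731535-101734269, both on the minus strand and with no overlapping gene. The 250 bases before the RefSeq start (GRCm38.p6) are shown for Ccr9 and Cxcr6, the neighbouring members with a genotype difference, 5′ to 3′ on the plus strand, from chr9:123766961-123767210 and chr9:123806227-123806476, with matched motifs in capitals.
Ccr9 promoter: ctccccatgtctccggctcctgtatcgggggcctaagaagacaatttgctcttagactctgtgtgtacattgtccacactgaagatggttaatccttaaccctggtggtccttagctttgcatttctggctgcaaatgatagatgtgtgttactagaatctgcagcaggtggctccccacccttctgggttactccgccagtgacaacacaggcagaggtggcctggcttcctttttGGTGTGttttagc
Cxcr6 promoter: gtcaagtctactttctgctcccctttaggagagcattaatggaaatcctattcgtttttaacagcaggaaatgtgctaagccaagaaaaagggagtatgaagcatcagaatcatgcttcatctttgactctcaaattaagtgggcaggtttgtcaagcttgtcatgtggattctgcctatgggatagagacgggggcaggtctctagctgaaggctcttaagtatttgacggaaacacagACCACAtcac
Both strands were searched for an interferon-stimulated response element core (GAAA, any 2 bases, GAAA), a STAT site of the GAS type (TTCNNNGAA), a T-box half-site (GGTGTG), a RUNX site (TGTGGT) and a HIF site (ACGTG). The Ccr9 window held 1 T-box half-site, which begins 13 bases before the start, and 16.2% of 27025 RefSeq promoter windows of the same length hold one. In the Cxcr6 window, 1 RUNX site, read as ACCACA on this strand, begins 10 bases before the start, and 14.2% of promoter windows hold one. The Cxcr3 window held 1 RUNX site 110 bases before the start, and the Cxcr4 window held no match. None of the 4 windows held the interferon response core or the GAS site, which occur in 3.04% and 7.18% of promoter windows. The HIF site, found in 16.6% of promoter windows, was in none of the 4 either. These matches describe letters and draw nothing about the binding of a factor.

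Recovered reads per library numbered 7132515 to 7355337 in Morrbid-/- and 5788070 to 6918633 in wild type with IFN-beta, and 1747634 to 2443158 in Morrbid-/- and 2360619 to 2963149 in wild type without it. Mitochondrial 16S rRNA took 9.05% to 10.5% of the reads in Morrbid-/- and 9.45% to 12.0% in wild type with IFN-beta, and 11.6% to 18.9% in Morrbid-/- and 12.5% to 18.1% in wild type without it, so the genotypes overlapped in this share. Morrbid itself, listed as Gm14005, had 7.10, 5.24 and 7.16 normalized counts in the libraries labelled Morrbid-/- without IFN-beta, against 1.79, 4.16 and 1.53 in wild type. These values rest on 18 reads in Morrbid-/- and 8 reads in wild type, a rate ratio of 2.80 (exact 95% interval 1.16 to 7.43, counting error only). They go against the labels, so Morrbid-/- below always means the libraries labelled Morrbid-/-, and Morrbid with IFN-beta was not analysed here. Its neighbour Bcl2l11 averaged 412 ± 58.2 normalized counts in Morrbid-/- and 665 ± 77.3 in wild type with IFN-beta (SD, n = 4 each), and it fell by 0.69 on the log2 scale in Morrbid-/- (limma adjusted p = 3.14e-05). Without IFN-beta Bcl2l11 averaged 300 ± 27.7 in Morrbid-/- and 389 ± 68.6 in wild type (SD, n = 3 each). That difference, -0.36 on the log2 scale, did not pass (limma adjusted p = 0.424).

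**Figure D1:**
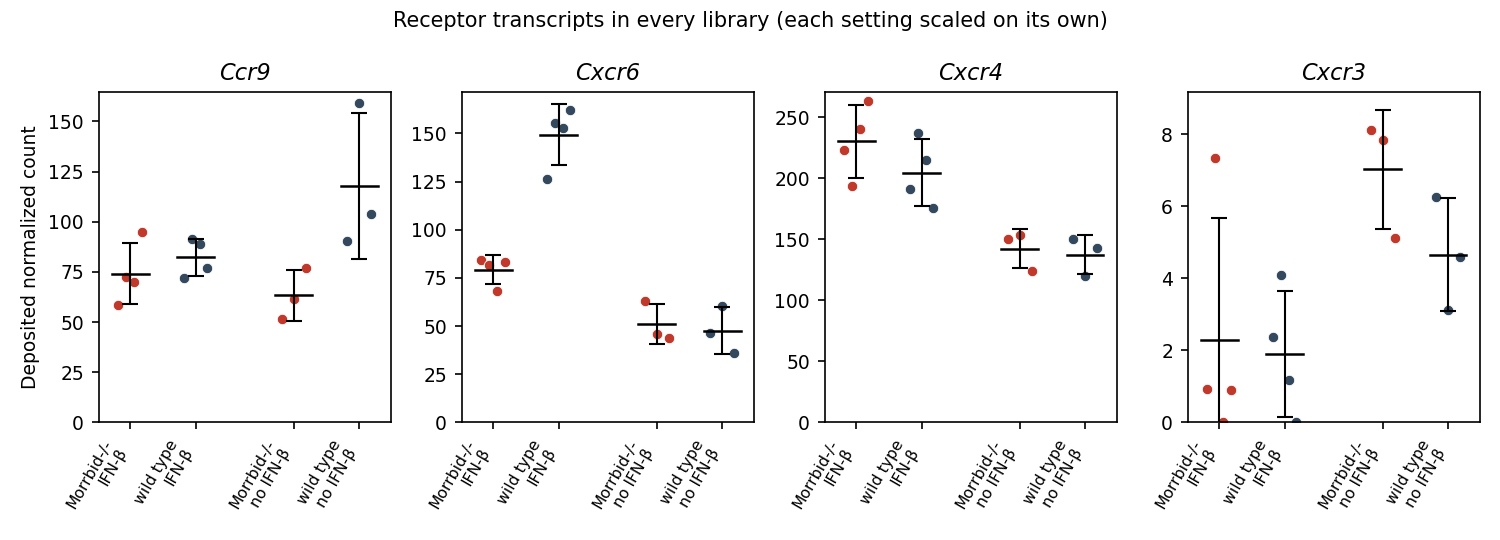
Deposited normalized counts (y axis, from 0) of the 4 receptors in each library (points), by genotype and IFN-beta setting (x axis), with mean and SD as bars. Cxcr6 lies between 68.3 and 84.3 in Morrbid-/- and between 126 and 162 in wild type with IFN-beta, and Ccr9 lies between 51.7 and 76.7 in Morrbid-/- and between 90.3 and 159 in wild type without it. The settings were scaled separately, so levels are not comparable between them.

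Cxcr6, the receptor for CXCL16, was lower in Morrbid-/- cells by nearly one log2 unit when IFN-beta was present, and it showed no such difference without IFN-beta. With IFN-beta it had 84.3, 81.6, 68.3 and 83.0 normalized counts in the 4 Morrbid-/- libraries, against 126, 156, 153 and 162 in the 4 wild-type libraries. The groups did not overlap, and the highest Morrbid-/- library lay well under the lowest wild-type one. The means were 79.3 ± 7.42 in Morrbid-/- and 149 ± 15.8 in wild type (SD, n = 4 each), from 348 reads in Morrbid-/- and 556 in wild type. Cxcr6 fell by 0.90 on the log2(normalized count + 1) scale in Morrbid-/- (SE 0.13, 95% interval -1.16 to -0.64, limma adjusted p = 3.76e-05). In the same comparison 4.84% of the 9964 genes tested were lower and 5.25% higher (482 and 523 genes, against 344 and 730 after rescaling to equal totals), and 7.6% had all Morrbid-/- libraries under all wild-type ones. Since these are bulk libraries, fewer Cxcr6-expressing cells and less Cxcr6 RNA per cell cannot be told apart.

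Without IFN-beta, Cxcr6 had 62.8, 45.8 and 44.0 normalized counts in Morrbid-/- libraries, against 46.5, 60.4 and 35.9 in wild-type libraries. The groups overlapped, and the lowest of all 6 values was in wild type. The means were 50.9 ± 10.4 in Morrbid-/- and 47.6 ± 12.3 in wild type (SD, n = 3 each). The log2 difference was 0.11 (SE 0.22, 95% interval -0.34 to 0.56, limma adjusted p = 0.975), an interval that leaves out the difference seen with IFN-beta.

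Ccr9, the receptor for the gut chemokine CCL25, was lower in Morrbid-/- cells without IFN-beta and did not pass the test with it. Without IFN-beta it had 51.7, 61.5 and 76.7 normalized counts in the 3 Morrbid-/- libraries, against 90.3, 159 and 104 in the 3 wild-type libraries. The groups did not overlap, though the highest Morrbid-/- and the lowest wild-type library were close and 1 wild-type library stood high. The means were 63.3 ± 12.6 in Morrbid-/- and 118 ± 36.5 in wild type (SD, n = 3 each), from 173 reads in Morrbid-/- and 390 in wild type. Ccr9 fell by 0.86 on the log2 scale in Morrbid-/- (SE 0.19, 95% interval -1.26 to -0.47, limma adjusted p = 0.0266). It was 1 of 9 genes called lower among 9290 tested, a background of 0.0969%, beside 0.538% called higher, and 5.39% of genes had all Morrbid-/- libraries under all wild-type ones.

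The Ccr9 call was less firm than that of Cxcr6. It did not survive leaving out Morrbid-/- replicate 1 (log2 difference -0.73, limma adjusted p = 0.0622) or Morrbid-/- replicate 2 (-0.85, adjusted p = 0.211), nor leaving out wild-type replicate 2 (-0.62, adjusted p = 0.488) or wild-type replicate 3 (-0.93, adjusted p = 0.0508), though the direction stayed in each. Reads of Ccr9 may also be shared with other genes. Its annotation overlaps 6 other genes, and 19.3% of its 10331 stretches of 75 bases, the read length, also occur in the unnamed models AC165425.1 and Gm17200, whereas 0 of the stretches of Cxcr6, Cxcr4 and Cxcr3 occur in another gene.

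With IFN-beta, Ccr9 had 58.6, 72.4, 70.1 and 94.9 normalized counts in Morrbid-/- libraries, against 72.0, 91.1, 88.7 and 77.1 in wild-type libraries. The groups overlapped, and the highest as well as the lowest value was in Morrbid-/-. The means were 74.0 ± 15.2 in Morrbid-/- and 82.2 ± 9.18 in wild type (SD, n = 4 each), and the log2 difference was -0.17 (SE 0.16, 95% interval -0.49 to 0.16, limma adjusted p = 0.566).

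Whether a genotype difference itself differed between the settings was tested as an interaction by fitting all 14 libraries together in limma (9078 genes). For Cxcr6 the log2 difference with IFN-beta was lower than that without it by 1.01, written as -1.01 (SE 0.24, 95% interval -1.51 to -0.51, limma adjusted p = 0.0282). In this test 0.892% of genes passed as lower and 0.441% as higher, 1.33% in all. The Cxcr6 interaction was lost without any of 6 single libraries, with limma adjusted p-values of 0.0738 without Morrbid-/- replicate 3, 0.0667 without wild-type replicate 2, 0.0550 without wild-type replicate 3 and 0.0620 without wild-type replicate 4 for the libraries with IFN-beta. For those without IFN-beta it was 0.0925 when Morrbid-/- replicate 1 was left out and 0.0903 when wild-type replicate 3 was. For Ccr9 the interaction was 0.70 (SE 0.26, 95% interval 0.15 to 1.24, limma adjusted p = 0.256), so its genotype differences in the 2 settings were not shown to differ.

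**Figure D2:**
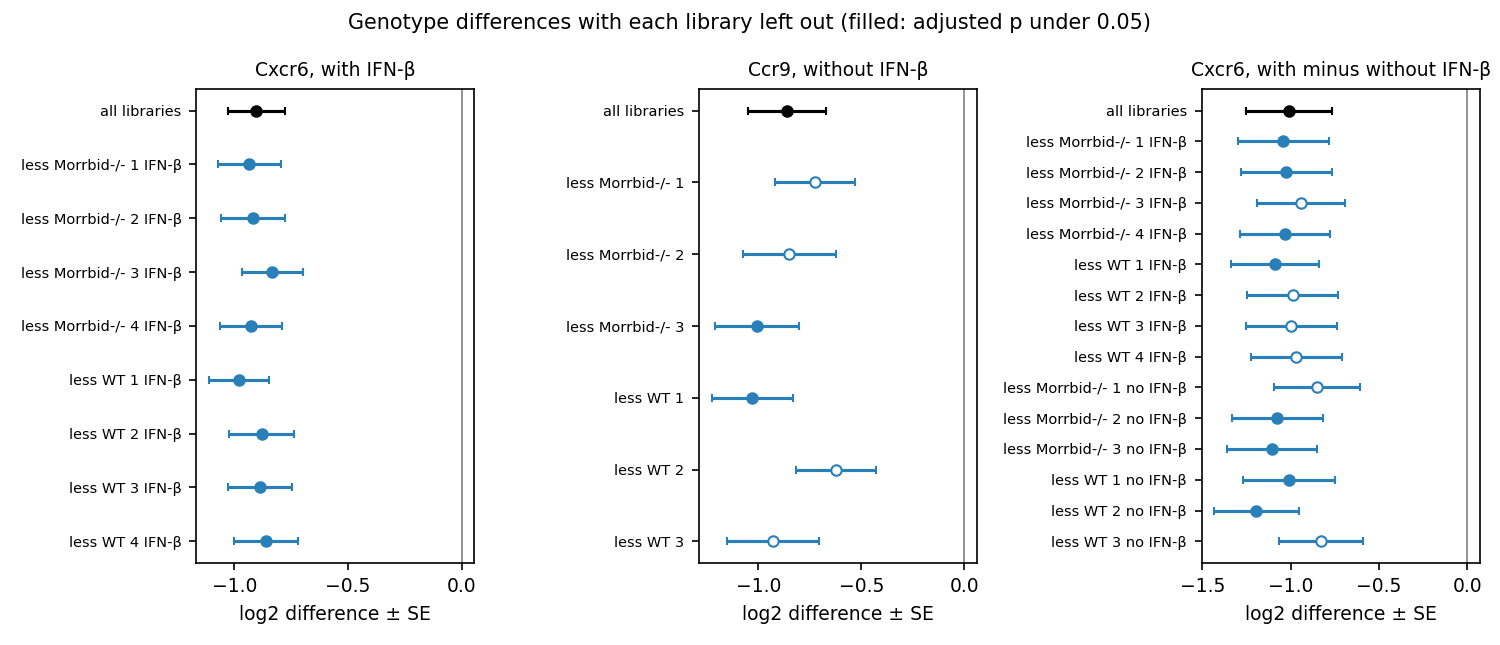
Log2 differences with their SE (x axis) from limma, for all libraries (black) and with each library left out (blue, one per row), filled where the adjusted p is under 0.05. Cxcr6 with IFN-beta stays between -0.98 and -0.83 and filled throughout, whereas Ccr9 without IFN-beta, between -1.03 and -0.62, is open in 4 of 6 rows and the Cxcr6 interaction, between -1.19 and -0.83, in 6 of 14.

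Cxcr4, the receptor for CXCL12, was not called in either setting. With IFN-beta it had 224, 193, 241 and 264 normalized counts in Morrbid-/- libraries, against 191, 238, 215 and 176 in wild-type libraries. The groups overlapped, with means of 230 ± 29.6 in Morrbid-/- and 205 ± 27.1 in wild type (SD, n = 4 each), and the log2 difference was 0.17 (SE 0.11, 95% interval -0.06 to 0.40, limma adjusted p = 0.380). Without IFN-beta it had 150, 153 and 124 normalized counts in Morrbid-/- libraries, against 150, 120 and 143 in wild-type libraries. These also overlapped, with means of 142 ± 16.1 in Morrbid-/- and 138 ± 15.9 in wild type (SD, n = 3 each) and a log2 difference of 0.05 (SE 0.14, 95% interval -0.23 to 0.33, limma adjusted p = 0.980). Differences of the size seen for Cxcr6 and Ccr9 lay outside both intervals, and the interaction was 0.12 (SE 0.18, limma adjusted p = 0.843).

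Cxcr3, the receptor for the interferon-induced chemokines, was close to the detection limit in all 4 groups and, with a mean under 10, was not part of the test across genes. With IFN-beta it had 1, 8, 0 and 1 reads in Morrbid-/- libraries and 2, 4, 1 and 0 reads in wild-type libraries. The 10 reads in Morrbid-/- and 7 reads in wild type gave a rate ratio of 1.21 (exact 95% interval 0.414 to 3.73, counting error only), and 1 Morrbid-/- library held most of its group's reads. Without IFN-beta it had 8, 6 and 5 reads in Morrbid-/- libraries and 7, 3 and 6 reads in wild-type libraries, a rate ratio of 1.48 (exact 95% interval 0.719 to 3.07, counting error only). Exact two-sided permutation tests of the log2 values gave p = 0.886 with IFN-beta, where the smallest possible is 0.0286, and p = 0.2 without it, where the smallest possible is 0.1. No difference was detectable at this depth.

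**Figure D3:**
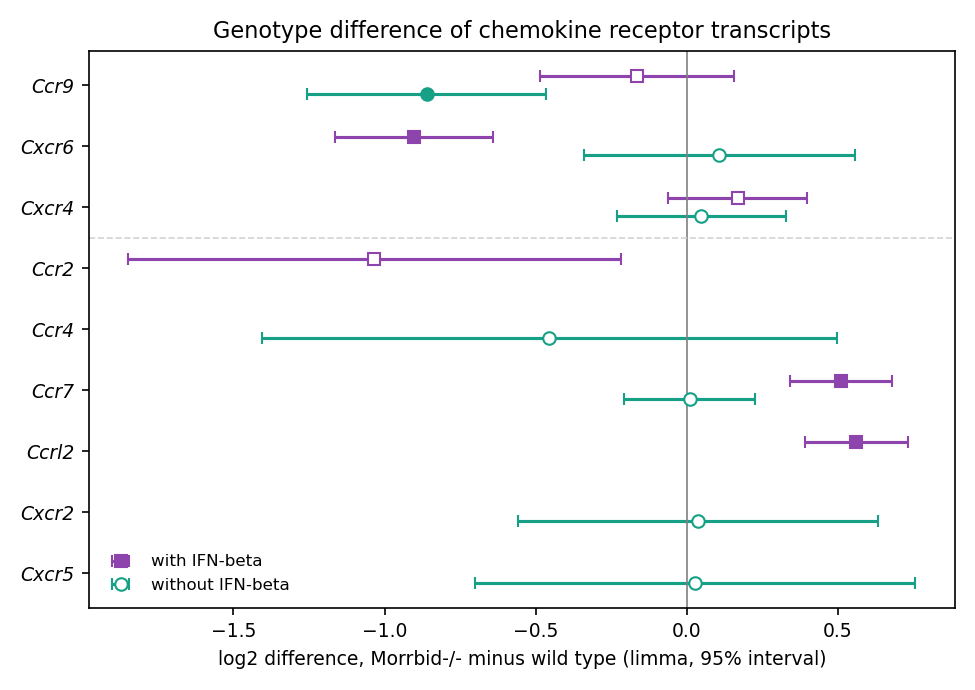
Log2 difference (x axis, Morrbid-/- minus wild type, 95% interval from limma) of the tested members (above the dashed line) and of other chemokine receptors with a mean of at least 10 (below it), with IFN-beta (squares) and without it (circles), filled where the adjusted p is under 0.05. Cxcr6 at -0.90 and Ccr9 at -0.86 are the filled members, each in 1 setting, and Ccr7 at 0.51 and Ccrl2 at 0.56 are the filled other receptors, both with IFN-beta.

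To place both settings on one page, levels were expressed as recovered reads per 1000000 recovered reads of the library (RPM), because the normalized counts of the 2 tables do not share a scale. Ccr9 made up 11.2 ± 2.16 RPM in Morrbid-/- and 12.2 ± 1.41 in wild type with IFN-beta (SD, n = 4 each), and 27.4 ± 6.76 in Morrbid-/- and 48.8 ± 14.8 in wild type without it (SD, n = 3 each). Every library with IFN-beta lay under every library without it, in both genotypes. Cxcr4 was arranged alike, at 34.9 ± 4.16 RPM in Morrbid-/- and 30.3 ± 4.09 in wild type with IFN-beta, and 61.0 ± 5.77 in Morrbid-/- and 57.1 ± 7.46 in wild type without it. Cxcr6 stood at 12.0 ± 1.08 RPM in Morrbid-/- and 22.0 ± 2.44 in wild type with IFN-beta, and at 21.7 ± 3.19 in Morrbid-/- and 19.6 ± 4.48 in wild type without it. In wild type the Cxcr6 values of the 2 settings overlapped, whereas in Morrbid-/- those with IFN-beta, at 10.4 to 12.9, lay under those without it, at 19.7 to 25.4. Cxcr3 stood at 0.349 ± 0.519 RPM in Morrbid-/- and 0.281 ± 0.259 in wild type with IFN-beta, and at 3.0 ± 0.619 in Morrbid-/- and 1.92 ± 0.607 in wild type without it. The settings were deposited in separate tables of different depth, so IFN-beta and the making of the tables cannot be told apart, and no test was made between them.

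**Figure D4:**
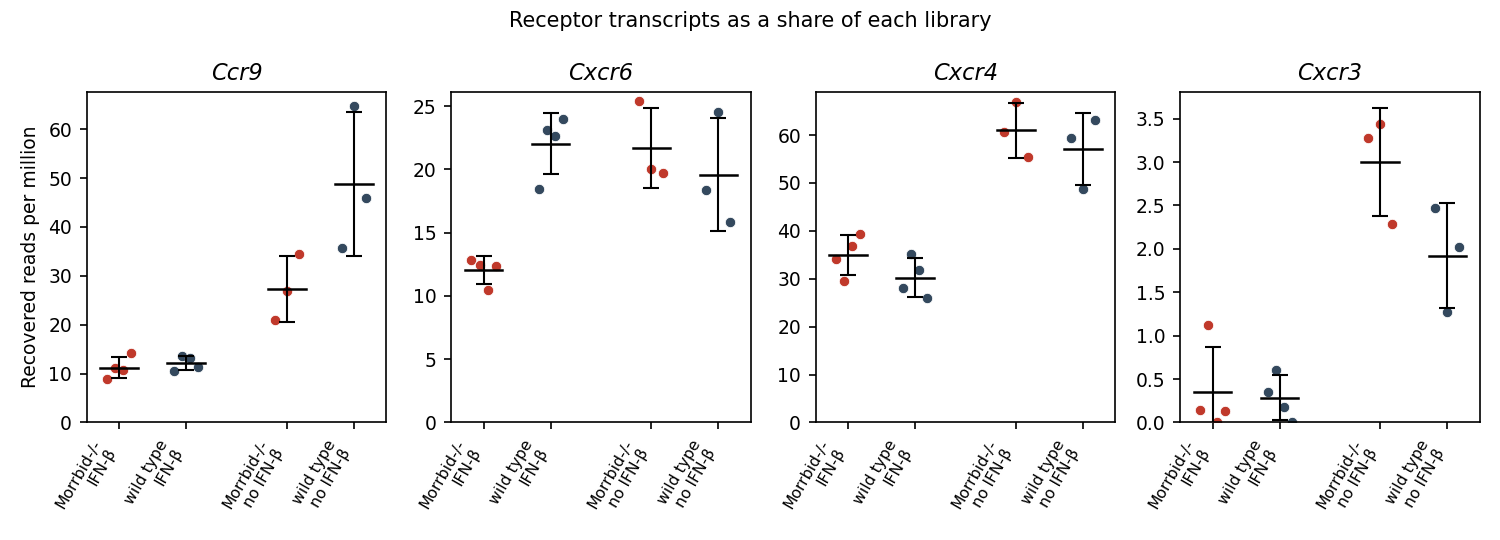
Recovered reads in RPM (y axis, from 0) of the 4 receptors in each library (points), by genotype and IFN-beta setting (x axis), with mean and SD as bars. Ccr9 and Cxcr4 lie lower in all libraries with IFN-beta than in those without it, and Cxcr6 is near 20 in 3 groups and at 12.0 in Morrbid-/- with IFN-beta.

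To order the receptors by level, normalized counts were divided by the length of each gene's transcript with the lowest GENCODE number. With IFN-beta the order was the same in both genotypes. Cxcr4 led with 128 ± 16.4 normalized counts per kb in Morrbid-/- and 113 ± 15.02 in wild type, followed by Cxcr6 with 41.8 ± 3.91 in Morrbid-/- and 78.7 ± 8.33 in wild type. Ccr9 came next with 28.2 ± 5.79 in Morrbid-/- and 31.4 ± 3.50 in wild type, and Cxcr3 was last with 1.32 ± 1.96 in Morrbid-/- and 1.10 ± 1.01 in wild type. Neighbours in this order did not overlap in wild type, and in Morrbid-/- Ccr9 reached 36.2 where the lowest Cxcr6 library had 36.0. Without IFN-beta Cxcr4 again led with 78.9 ± 8.94 per kb in Morrbid-/- and 76.2 ± 8.83 in wild type. Cxcr6, at 26.8 ± 5.48, and Ccr9, at 24.2 ± 4.82, overlapped in Morrbid-/-, whereas in wild type Ccr9, at 45.0 ± 13.9, lay above Cxcr6, at 25.1 ± 6.46. The place of Ccr9 depends on the length used, since its merged exons span 10260 bases against 2620 for that transcript. By merged exons Ccr9 had 7.21 per kb in Morrbid-/- and 8.02 in wild type with IFN-beta and 6.17 in Morrbid-/- and 11.5 in wild type without it, under Cxcr6 in each group. For comparison, Ccr7, the lymph node homing receptor of naive T cells, had 405 ± 41.0 per kb in Morrbid-/- and 284 ± 26.0 in wild type with IFN-beta.

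Among 19 other chemokine receptors, 3 were tested with IFN-beta and 4 without it. With IFN-beta 2 of the 3 were higher in Morrbid-/-, none was lower and 1 did not pass, beside a background of 10.1% of all genes called in either direction. Ccr7 had 874, 690, 796 and 847 normalized counts in Morrbid-/- libraries, against 517, 589, 521 and 621 in wild-type libraries. The groups did not overlap, and Ccr7 rose by 0.51 on the log2 scale (SE 0.08, limma adjusted p = 0.000168). Ccrl2, an atypical receptor that binds chemerin, had 436, 400, 439 and 473 normalized counts in Morrbid-/- libraries, against 304, 271, 307 and 300 in wild-type libraries. It rose by 0.56 (SE 0.08, limma adjusted p = 6.42e-05), also without overlap. Ccr2, which brings cells to CCL2 and lies in the same cluster as Ccr9 and Cxcr6, averaged 7.74 ± 2.37 in Morrbid-/- and 18.1 ± 8.50 in wild type (SD, n = 4 each), with a log2 difference of -1.03 that did not pass (limma adjusted p = 0.0997). The Ccr2 values rest on 34 reads in Morrbid-/- and 66 reads in wild type. With single libraries left out the difference ran from -1.41 to -0.83, and it passed only without wild-type replicate 4 (-1.41, limma adjusted p = 0.0155). Under 17 of 19 alternatives it stayed uncalled.

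Without IFN-beta none of the 4 passed by limma, edgeR or DESeq2 at an adjusted p of 0.05, and 0 had an unadjusted p under 0.05, beside 0.635% and 6.1% of all genes. Ccr7 averaged 291 ± 14.9 normalized counts in Morrbid-/- and 289 ± 18.1 in wild type (SD, n = 3 each), and its difference between settings lay at the threshold (interaction 0.50, limma adjusted p = 0.0510). The Ccr7 interaction passed under 9 of 27 alternatives, by DESeq2 (adjusted p = 0.0489), with the replicate block (0.0134), and without Morrbid-/- replicate 2 (0.0172) or wild-type replicate 4 (0.0285) with IFN-beta or wild-type replicate 3 without it (0.0320) among them. Cxcr2 had 21.2 in Morrbid-/- and 20.5 in wild type on average, Cxcr5, which leads cells to B cell follicles, 12.3 in Morrbid-/- and 11.9 in wild type, and Ccr4 10.3 in Morrbid-/- and 14.2 in wild type. Their limma adjusted p-values were all over 0.9. Ccrl2 was listed at 0 reads in all 6 libraries, and it was the single gene of 5716 with a mean of at least 100 with IFN-beta that was at 0 in every library without it. No fold between the settings was taken from this 0.

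Of the chemokine ligands, 6 were tested with IFN-beta. None passed by limma, edgeR or DESeq2, where limma called 10.1% of all genes. Of the 6, 3 had an unadjusted p under 0.05, beside 24.4% of all genes. Without IFN-beta 1 of 5 was higher and none was lower, beside 0.538% and 0.0969% of all genes. It was Cxcl10, a ligand of CXCR3 and a classic interferon target. Cxcl10 averaged 19.8 ± 4.47 normalized counts in Morrbid-/- and 4.43 ± 3.03 in wild type (SD, n = 3 each), a rise of 2.13 on the log2 scale (limma adjusted p = 0.0264). This rests on 53 reads in Morrbid-/- and 16 reads in wild type, and it no longer passed when wild-type replicate 2 (1.54, adjusted p = 0.138) was left out, nor without Morrbid-/- replicate 2 (1.97, adjusted p = 0.437) or without Morrbid-/- replicate 3 (2.25, adjusted p = 0.0766). With IFN-beta Cxcl10 averaged 4409 ± 499 in Morrbid-/- and 3860 ± 181 in wild type (log2 difference 0.19, limma adjusted p = 0.0785). Its interaction was -1.95 (limma adjusted p = 0.00182), which did not pass with no mean-variance trend (0.108) or with robust empirical Bayes (0.131).

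Of 28 genes that carry the receptor signal to the cytoskeleton, among them G protein subunits, Dock2 and Rac2, 1 was higher with IFN-beta (5.25% of all genes) and none was lower (4.84%), with a median log2 difference of -0.04, against 0.00 over all genes tested. It was Lasp1, an actin-binding protein that binds CXC receptors, with 481 ± 38.8 normalized counts in Morrbid-/- and 362 ± 58.1 in wild type (0.42, limma adjusted p = 0.00621), although the groups overlapped. An unadjusted p under 0.05 was found for 15 of the 28, beside 24.4% of all genes. The Lasp1 call was lost with the 16S rRNA share as covariate (0.33, limma adjusted p = 0.0510). Without IFN-beta none of the 28 passed by limma, edgeR or DESeq2, 0 had an unadjusted p under 0.05 (6.1% of all genes), and the median was -0.01, against -0.01 over all genes. Of 17 tested genes of receptor desensitisation, 2 were higher and 1 lower with IFN-beta, beside 5.25% and 4.84% of all genes. Without it none passed by limma, edgeR or DESeq2, and 1 had an unadjusted p under 0.05, as had 6.1% of all genes. Arrb1, the arrestin that uncouples and internalises receptors, had 40.3 to 53.2 normalized counts in Morrbid-/- libraries, against 67.7 to 104 in wild-type libraries with IFN-beta, and fell by 0.83 (SE 0.16, limma adjusted p = 0.00156). Grk5, a kinase that phosphorylates receptors for arrestin binding, averaged 50.3 ± 7.52 in Morrbid-/- and 26.1 ± 6.03 in wild type and rose by 0.93 (SE 0.21, limma adjusted p = 0.00447). Hgs, which sorts internalised receptors to lysosomes, rose by 0.28 (limma adjusted p = 0.0453), a call lost without any 1 of the 8 libraries.

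Of 26 tested transcription factors linked to these receptors, 10 were higher with IFN-beta and none was lower, beside 5.25% higher and 4.84% lower of all genes, with a median log2 difference of 0.19, against 0.00 over all genes tested. Bhlhe40, which supports tissue-resident CD8 T cells, averaged 93.9 ± 21.3 normalized counts in Morrbid-/- and 38.6 ± 10.9 in wild type (SD, n = 4 each) and rose by 1.28 (SE 0.20, limma adjusted p = 0.000118). Rarg, a retinoic acid receptor, averaged 88.6 ± 11.2 in Morrbid-/- and 52.2 ± 6.34 in wild type and rose by 0.75 (limma adjusted p = 0.00227). Retinoic acid is known to induce CCR9 in T cells. Hif1a, the hypoxia factor that can raise CXCR4, averaged 3338 ± 261 in Morrbid-/- and 2763 ± 115 in wild type and rose by 0.27 (limma adjusted p = 0.00453). Yy1 rose by 0.33 (limma adjusted p = 0.00786) and Id2, an inhibitor of E proteins, by 0.45 (limma adjusted p = 0.0170), a call lost without Morrbid-/- replicate 1 (0.0679) or wild-type replicate 3 (0.0653). Without IFN-beta 1 of 26 was higher, beside 0.538% of all genes, and none was lower. It was Eomes, a T-box factor, with 92.8 ± 7.84 in Morrbid-/- and 52.2 ± 11.8 in wild type (SD, n = 3 each), a rise of 0.84 (limma adjusted p = 0.0223) without overlap. The Eomes call was lost by DESeq2 (adjusted p = 0.0541) and without any 1 of 4 single libraries. These were Morrbid-/- replicate 1 (limma adjusted p = 0.0585), replicate 2 (0.0785) or replicate 3 (0.122) and wild-type replicate 2 (0.197). Bhlhe40 without IFN-beta averaged 42.8 ± 5.46 in Morrbid-/- and 29.4 ± 6.06 in wild type. Its log2 difference of 0.54 did not pass (limma adjusted p = 0.760). Of 25 factors tested for the interaction 0 passed, beside 1.33% of all genes, so no factor was shown to differ between the settings.

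Of 17 tested adhesion and egress genes that act with chemokine receptors, 2 were higher and 2 lower with IFN-beta, beside 5.25% and 4.84% of all genes. Without it none passed by limma, edgeR or DESeq2, and 5 of the 17 had an unadjusted p under 0.05, beside 6.1% of all genes. Icam1, a ligand of the integrin LFA-1, averaged 1353 ± 89.2 normalized counts in Morrbid-/- and 965 ± 65.4 in wild type (SD, n = 4 each) and rose by 0.49 (limma adjusted p = 2.80e-05). Lpar6, a receptor for lysophosphatidic acid, averaged 140 ± 10.04 in Morrbid-/- and 190 ± 21.0 in wild type and fell by 0.43 (limma adjusted p = 0.0121). The Lpar6 call was lost without Morrbid-/- replicate 2 (adjusted p = 0.0580) or wild-type replicate 2 (0.0608) and in one fit of all libraries (0.106). Cd44, a hyaluronan receptor by which the cells were sorted, averaged 34.1 ± 8.91 in Morrbid-/- and 18.2 ± 6.59 in wild type with IFN-beta. It rose by 0.89 (limma adjusted p = 0.0400), with overlap, but by 0.51 with the 16S rRNA share as covariate (limma adjusted p = 0.263). Without IFN-beta Cd44 averaged 61.1 ± 8.35 in Morrbid-/- and 32.5 ± 8.55 in wild type (SD, n = 3 each). That log2 difference, 0.92, did not pass (limma adjusted p = 0.0614). The Cd44 interaction was -0.03 (limma adjusted p = 0.991), so its difference was not shown to depend on IFN-beta. Gpr183, the oxysterol receptor that places cells in lymphoid tissue, fell by 0.27 (limma adjusted p = 0.0475), with overlap. The Cd44 call was lost without any one of 6 single libraries, and also with no filter, quantile normalization or no trend, and that of Gpr183 without any one of 5 single libraries and under 7 other alternatives.

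The genes around Cxcr6 were examined after the values of Ccr9 and Cxcr6 had been seen. Of 25 RefSeq genes considered within 500 kb of the Cxcr6 start, 9 were tested with IFN-beta and 8 without it. Cxcr6 was the single one called with IFN-beta, where 4.84% of all genes were lower and 5.25% higher. Fyco1, whose intron holds Cxcr6, averaged 1308 ± 45.4 normalized counts in Morrbid-/- and 1294 ± 84.0 in wild type with IFN-beta (0.02, limma adjusted p = 0.911), and 367 ± 52.5 in Morrbid-/- and 366 ± 56.4 in wild type without it (0.01, limma adjusted p = 0.996). Without IFN-beta Ccr9 and Lars2 were lower and none was higher, where 0.0969% of all genes were lower and 0.538% higher. Lars2, the mitochondrial leucyl-tRNA synthetase, averaged 49.8 ± 13.7 in Morrbid-/- and 102 ± 13.0 in wild type (SD, n = 3 each) and fell by 1.05 (limma adjusted p = 0.00229). Lztfl1, which overlaps the Ccr9 annotation on the opposite strand, averaged 148 ± 3.81 in Morrbid-/- and 146 ± 17.9 in wild type (0.03, limma adjusted p = 0.986).

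**Figure D5:**
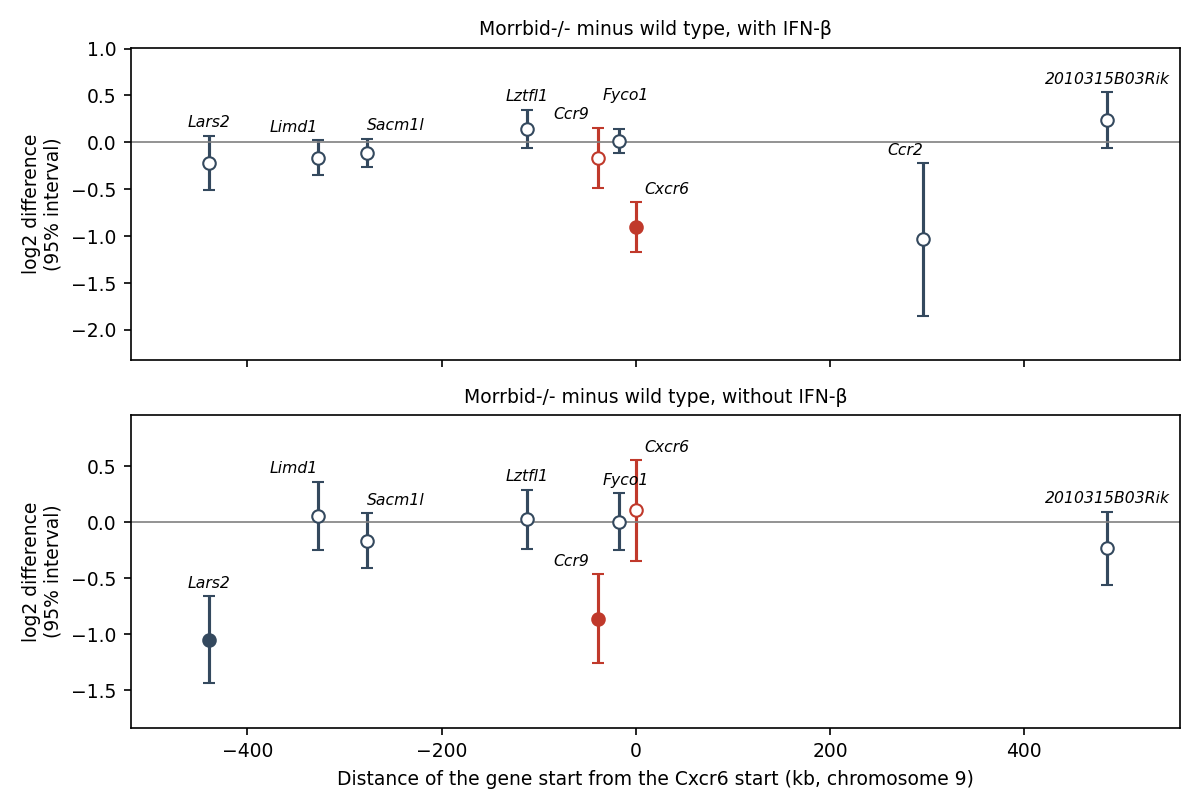
Log2 difference (y axis, Morrbid-/- minus wild type, 95% interval from limma) of tested genes against the distance of their start from the Cxcr6 start (x axis, kb), with IFN-beta (upper panel) and without it (lower panel), members in red, filled where the adjusted p is under 0.05. Cxcr6 at -0.90 is the filled gene of the upper panel, and Ccr9 at -0.86 and Lars2 at -1.05 are those of the lower panel.

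As a description, the genes with the most similar pattern over the 14 libraries were sought by Pearson r of log2 values centred within each table, among the 5621 genes that averaged 50 or more in each table. The libraries share depth and composition, so no p is given. Nearest to Ccr9 were Pan3 (r = 0.88), Nipbl (r = 0.88) and the integrin gene Itga4 (r = 0.87), and with group means removed r was 0.93, 0.97 and 0.87. Over the 8 libraries with IFN-beta alone r was 0.97, 0.64 and 0.55, and by Spearman's rho over the 14 libraries these genes ranked 12, 21 and 44. Nearest to Cxcr6 were Bcl2 (r = 0.88), Ms4a6b (r = 0.86) and Pydc3 (r = 0.86), and with group means removed r was 0.69, 0.51 and 0.52. By Spearman's rho they ranked 3, 11 and 64, and over the 8 libraries with IFN-beta alone 24, 121 and 11. Like Cxcr6, each was lower in Morrbid-/- with IFN-beta, so r over all libraries also takes in that genotype difference. Their log2 differences were -0.60, -0.32 and -1.96 (limma adjusted p = 2.80e-05, 0.000203 and 1.76e-18). Nearest to Cxcr4 were Secisbp2l (r = 0.86), Chmp2b (r = 0.85) and Ube2r2 (r = 0.83). Those nearest to the sparse Cxcr3 were Ddx54, Ubl3 and Tsr1, which at so few reads is no finding. Among the members themselves r ran from -0.37 to 0.14, so no pair of receptors varied closely together.

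The libraries carried the transcripts of the labelled cell type. All 16 CD8 T cell genes were present, at a summed 4944 to 5443 RPM in Morrbid-/- and 5167 to 5340 in wild type with IFN-beta. None of them passed by limma, edgeR or DESeq2 in either setting. With IFN-beta 2 of the 16 had an unadjusted p under 0.05, beside 24.4% of all genes. Without it 3 of the 16 did, beside 6.1% of all genes. Cd4, Ms4a1, Cd14 and Tyrobp, which define other cell types, were at 0 or not listed in both tables, though other markers of such cells were detected. The 7 CD4 and regulatory T cell markers summed to 209 to 287 RPM in Morrbid-/- and 203 to 247 in wild type with IFN-beta. Without it the sum was 280 to 351 RPM in Morrbid-/- and 203 to 366 in wild type. Il2ra, Ctla4 and Ikzf2 were detected, and Foxp3 had 30 reads in Morrbid-/- and 17 in wild type with IFN-beta. Cd79a, a B cell marker, had 74 reads in Morrbid-/- and 43 in wild type with IFN-beta. B cell markers summed to at most 6.14 RPM, myeloid markers to at most 13.8, and erythroid and platelet markers to at most 7.66 in any library. The 11 markers of natural killer and gamma delta T cells summed to 211 to 277 RPM in Morrbid-/- and 181 to 209 in wild type with IFN-beta, and to 41.2 to 53.1 in Morrbid-/- and 25.4 to 34.8 in wild type without it. Most of the sum was Eomes, which activated CD8 T cells also express. Ncr1, which defines natural killer cells, was at 0 or not listed, as were Tcrg-C1 and Sox13. Others of the list were detected. Trdc averaged 15.1 normalized counts in Morrbid-/- and 15.6 in wild type with IFN-beta, and 12.0 in Morrbid-/- and 13.0 in wild type without it. Klrk1 had 30 reads in Morrbid-/- and 20 in wild type with IFN-beta. Of 10 tested markers of memory-phenotype CD8 cells, 3 were higher (Ly6a, Ly6c2 and Cd44) and 1 lower (Il18r1) with IFN-beta, where 10.1% of all genes were called. Of 6 tested without it 2 were higher (Ly6a and Eomes), where 0.635% of all genes were called. Of 3 tested markers of CD4 and regulatory T cells, Ctla4 and Ikzf2 were higher with IFN-beta, beside 5.25% of all genes. The part of memory-phenotype, CD4, regulatory, natural killer or gamma delta T cells in the receptor differences was not tested.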

How the data were processed

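A stranded total RNA kit (100 ng input) and paired reads of 75 bases were used, per the labels' protocols. Trimmomatic, STAR 2.5, featureCounts and DESeq2, with builds GRCm38 and mm10, stand in the submitters' processing notes. The authors deposited a table of normalized counts per setting, a signal that is never negative. No source used here gives the annotation, strand setting or filters, so overlapping genes may share reads. In every library all values were multiples of a single step, and 100% came out as whole reads (within 0.01) when divided by it. Intervals on reads cover counting error only.

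Within each table, log2(normalized count + 1) of genes with a mean of at least 10 was fitted with limma 3.58.1 (R 4.3.3, trend), two-sided, with Benjamini-Hochberg adjustment over all genes tested and a threshold of 0.05. Log2 differences are Morrbid-/- minus wild type on this scale, which understates changes of low genes. The interaction used one fit of both tables. Groups came from sample titles. Within groups, 18 pairs of replicates differed beyond sampling noise (chi-square per degree of freedom 1.81 to 8.46). Alternatives covered the pseudocount, filter, scaling, trend, weights, a 16S rRNA share covariate, a replicate block, single libraries left out, and edgeR 4.0.16 and DESeq2 1.42.0 on recovered reads, by which 50 and 44 genes were higher and 9 and 8 lower without IFN-beta, and 511 and 482 higher and 500 and 474 lower with it. The scripts were tested on simulated data. Positions and exons came from GENCODE M21, promoters from RefSeq.

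Named were the 4 members, Morrbid, Bcl2l11, other receptors with a mean of at least 10, in each list up to 6 passing members by smallest p or else up to 2 as values, and the 3 genes most like each member. The members and lists were chosen with earlier results of these data known. Lists are described by counts and medians and were not tested. Some genes of these lists and of the Cxcr6 neighbourhood are not reported here and stand in none of the list counts.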

Additional observations from a re-analysis of the deposited data

Results flagged for a closer look

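Within a group of 4 libraries, a library was singled out when its gap to the nearest other exceeded the 95% critical value of Dixon's test, which chance gives in about 1 in 20 groups, and 7 of 48 groups examined met it. Only the groups with IFN-beta hold 4 libraries, so those without it were not examined. Cxcr6 in Morrbid-/- replicate 3 had 68.3 normalized counts, under 81.6 to 84.3 in the other Morrbid-/- libraries, and leaving it out kept the Cxcr6 difference (log2 -0.83). Cxcr3 in Morrbid-/- replicate 2 had 7.33 normalized counts (8 reads), against at most 0.916 (1 read) in the other Morrbid-/- libraries. Ccr4 in Morrbid-/- replicate 3 had 3.59 normalized counts (4 reads), against 0.912 to 0.916 (1 read each) in the others. At so few reads the rate of 1 in 20 need not hold, so nothing is drawn from Cxcr3 and Ccr4 here. The other 4 were Hgs in Morrbid-/- replicate 3 at 287, Icam1 in Morrbid-/- replicate 4 at 1486, Lpar6 in Morrbid-/- replicate 2 at 126 and Grk5 in wild-type replicate 3 at 35.0 normalized counts.

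A genotype difference that itself differed between the settings was sought by the limma interaction, at an adjusted p under 0.05. The search covered the members and the lists of other receptors, ligands, signalling, desensitisation, transcription factors and homing partners. Those that passed were Cxcr6 (-1.01), Cxcl10 (-1.95) and Lasp1 (0.60), where 1.33% of all genes passed. Outside this search, 1 of 6 tested markers of memory-phenotype CD8 cells also passed, as lower. The genes most like each member were not part of it. The Cxcl10 interaction was lost with no trend (adjusted p = 0.108) and with robust empirical Bayes (0.131). The Lasp1 interaction was lost without any 1 of 10 of the 14 libraries, with log2 values of 0.51 to 0.70 throughout.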

How the results depend on the processing

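The Cxcr6 difference with IFN-beta passed under all 22 alternatives (log2 -0.98 to -0.83, limma, edgeR or DESeq2 adjusted p at most 0.0101), and Cxcr4 and the Ccr9 difference with IFN-beta stayed uncalled. Without the mean-variance trend, Ccr9 without IFN-beta (-0.86, adjusted p = 0.528) and the Cxcr6 interaction (-1.01, adjusted p = 0.0915) no longer passed, the calls of Cxcl10, Eomes, Lasp1, Hgs, Hif1a, Yy1, Id2, Lpar6, Cd44 and Gpr183 were lost, and 13 genes were higher and 4 lower without IFN-beta, 171 higher and 134 lower with it, and 15 higher and 51 lower for the interaction. With a mean of at least 50, Ccr9 without IFN-beta had -0.86 and an adjusted p of 0.0617, 5 genes were lower without IFN-beta, and Cxcr6 there could not be tested. One fit of all libraries called 101 higher and 16 lower without IFN-beta and 301 higher and 253 lower with it, where Grk5 no longer passed (adjusted p = 0.0557). With the 16S rRNA share as covariate, 32 were lower without IFN-beta and 70 higher for the interaction. Whether the replicate numbers pair the samples is not known. Correlations of same-numbered deviations were -0.02 to 0.20 without IFN-beta and 0.00 to 0.14 with it. Those of different numbers were -0.20 to 0.06 without IFN-beta and -0.08 to 0.04 with it. These values do not settle whether same-numbered libraries share a batch or an animal, and this was not tested. With the replicate block, 94 genes were higher and 75 lower without IFN-beta, and 148 higher and 163 lower for the interaction, and Ccr2 with IFN-beta passed (adjusted p = 0.0492). Rescaling to equal totals gave 730 higher and 344 lower with IFN-beta, against 523 and 482. The causes were not tested.

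With single libraries left out, Ccr9 ran from -1.03 to -0.62 without IFN-beta, with it from -0.29 to -0.062, and its interaction from 0.46 to 0.86. Cxcr6 without IFN-beta ran from -0.075 to 0.29, its interaction from -1.19 to -0.83. Cxcr4 ran from -0.048 to 0.15 without IFN-beta, with it from 0.099 to 0.25, and from 0.023 to 0.22 for the interaction. Cxcr3 ran from 0.31 to 0.72 without IFN-beta, with it from -0.68 to 0.34. Counts of genes ran from 31 (without Morrbid-/- replicate 2) to 52 higher and from 6 to 19 (without Morrbid-/- replicate 1) lower without IFN-beta, from 321 to 553 higher and from 288 to 466 lower with it (lowest without Morrbid-/- replicate 2), and from 24 (without wild-type replicate 1 with IFN-beta) to 47 higher and from 71 to 97 lower for the interaction. Of 563 checks of 37 named values other than those of the members, 10 changed sign, all of them of values that did not pass. These were, without IFN-beta, Cxcr2 (-0.042 with the 16S covariate, and -0.085 to 0.21 over single libraries), Cxcr5 (-0.011 with quantile normalization, and -0.085 to 0.15), Ccr7 (-0.043 to 0.039) and Ccr4 (-0.92 to 0.040). Among the members, Cxcr6 and Cxcr4 without IFN-beta changed sign in 2 checks each. Cxcr3 with IFN-beta, at -0.07 over all libraries, also changed sign over single libraries. Depth limits Cxcr3 and Morrbid, and also Ccr2 without IFN-beta and Ccr4 with it.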
